A study of Mus musculus with 4 samples.

Results

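Dual-specificity phosphatases remove phosphate from both the tyrosine and the threonine that switch on mitogen-activated protein (MAP) kinases, and 7 of their genes are described here in mouse CD8 T cells: Dusp1, Dusp2, Dusp4, Dusp5, Dusp6, Dusp10 and Dusp14. They were chosen by name among the 12763 genes of the expression table, in which 19 genes carry a Dusp symbol, and because their levels by tissue and by Pdcd1 and Tnfrsf9 status had already been looked at. Those levels therefore chose the members and are given as a description. The cells came from mixed bone marrow chimeras, C57BL/6 mice that were irradiated and rebuilt with marrow of a Cd4cre Cd137fl/fl ROSA26tomato donor together with marrow of a Cd137fl/fl ROSA26tomato donor. Cre under the Cd4 promoter acts in T cells from the thymic stage at which Cd4 is on, so CD8 T cells of the first donor lose Cd137 before they leave the thymus, and those of the other donor keep a floxed but intact gene. All mice carried a subcutaneous B16K1 melanoma, a transplanted line related to B16, and were sampled on day 21. The groups were tumour CD137 minus, tumour CD137 plus, spleen CD137 minus and spleen CD137 plus, each 1 library of cells pooled from 7 mice and sorted on the tomato reporter. The mouse behind each cell was not used here, so every value below is 1 library, no difference has a replicate check and none was tested. The donors also differ in Cre, so loss of CD137 cannot be told apart from the presence of Cre or from the donor.

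In T cells, signals from the antigen receptor reach the kinases ERK, JNK and p38, and several of these phosphatases are themselves induced by that signalling, which makes them a negative feedback. Dusp1, Dusp2, Dusp4 and Dusp5 encode inducible phosphatases of the nucleus, of which Dusp5 is selective for ERK and Dusp2 was first known from activated lymphocytes. Dusp6 encodes a cytoplasmic phosphatase selective for ERK, Dusp10 one that prefers JNK and p38, and Dusp14 a small phosphatase without the kinase-docking domain that restrains T cell receptor signalling in mice.

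The table held 1262 cells of tumour CD137 minus, 2766 of tumour CD137 plus, 2464 of spleen CD137 minus and 473 of spleen CD137 plus. Its values were corrected counts, with a median total per cell of 4833.5, 3701.5, 3973 and 5344 in that order, and levels are given in CPM, the summed corrected counts scaled to a total of 1e+06. In total, 19 cell barcodes occurred in more than 1 library, and leaving those cells out changed no call of a member. CD8 identity was carried by nearly all cells: Cd8b1 had a value in 97.6% of cells of either tumour library, in 97.8% of spleen CD137 minus cells and in 98.5% of spleen CD137 plus cells. Tnfrsf9, which encodes CD137, stood at 57.5 CPM in tumour CD137 minus and 421 CPM in tumour CD137 plus, and had a value in 15.8% and 45.3% of these cells. The floxed gene can still give transcripts, and whether the remaining Tnfrsf9 counts come from the deleted allele was not tested. A gene was counted as measured in a comparison when it reached 20 CPM and a value in 5% of cells on at least 1 side and had a value on both sides. It was called higher or lower at a log2 ratio of at least 0.5 in size, with a pseudocount of 1 CPM; this is a limit on size and not a test. Intervals given with levels, shares and ratios are 95% intervals of counting error alone, Poisson for summed counts, binomial for ratios and Clopper-Pearson for shares. Those of levels and ratios treat corrected counts as sampled counts and leave out the spread between cells, so they can be too narrow.

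Tumour CD8 T cells held far more of the nuclear phosphatase transcripts than spleen CD8 T cells of the same donor. Dusp1, which acts on JNK, p38 and ERK, stood at 801 CPM (779 to 824) in tumour CD137 minus and 130 CPM (123 to 137) in spleen CD137 minus. In the CD137 plus libraries it stood at 806 CPM (789 to 824) in tumour and 129 CPM (115 to 144) in spleen. The log2 ratio of tumour over spleen was thus 2.61 for CD137 minus and 2.64 for CD137 plus. Dusp2 stood at 888 CPM in tumour CD137 minus and 187 CPM in spleen CD137 minus, a log2 ratio of 2.24. For CD137 plus it stood at 943 CPM in tumour and 180 CPM in spleen, a log2 ratio of 2.38. Both genes were already present in a sizeable part of spleen cells, in 33.9% (Dusp1) and 43.4% (Dusp2) of spleen CD137 minus cells, against 78.9% and 82.6% of tumour CD137 minus cells. The difference lay in the amount per cell as well as in the share of cells: 8.95% of tumour CD137 minus cells had 11 or more corrected counts of Dusp1, whereas the highest count in any spleen CD137 minus cell was 9.

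**Figure D1:**
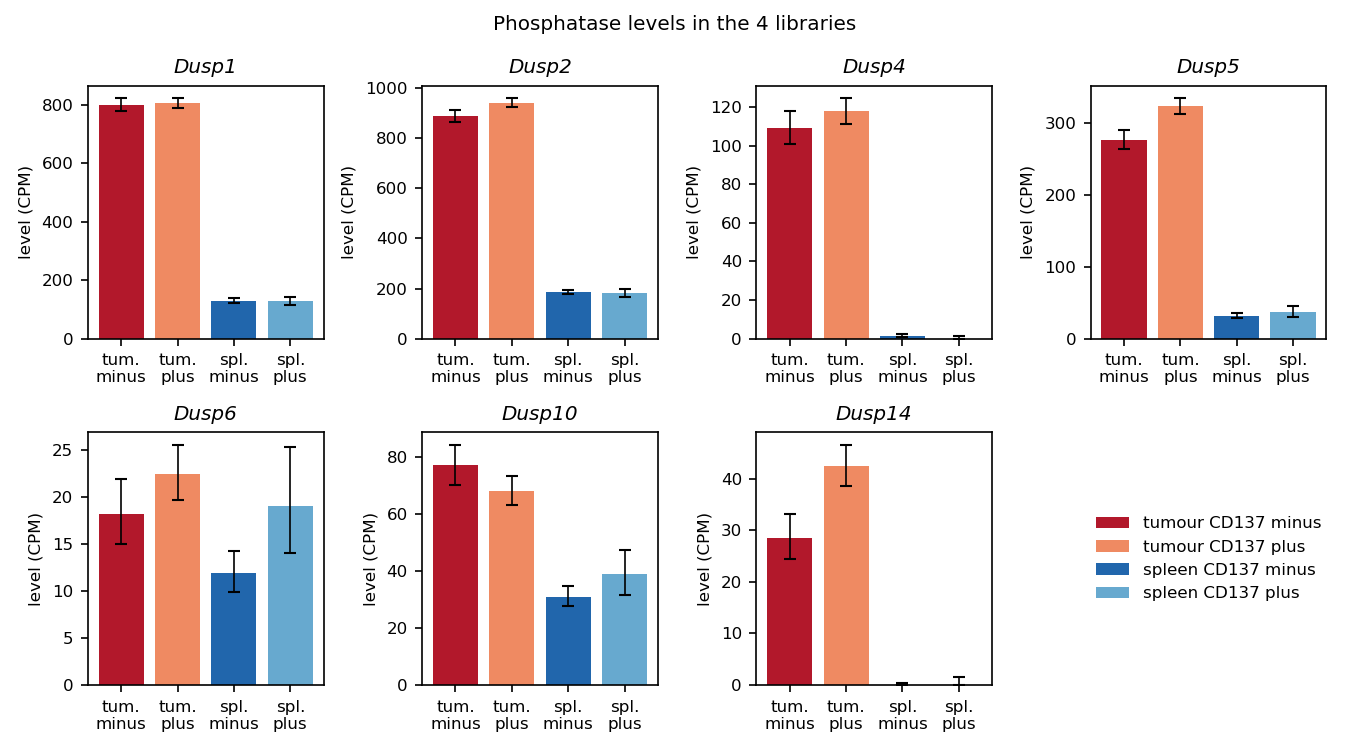
Level of each phosphatase gene (CPM of summed corrected counts, y axis from 0, own scale per gene) in the 4 libraries, bars with 95% Poisson intervals of counting error and 1 library per bar. Dusp1, Dusp2, Dusp4, Dusp5 and Dusp10 stand higher in both tumour libraries than in both spleen libraries, while Dusp6 stands between 11.9 and 22.5 CPM in all 4.

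Dusp5 showed the same order on a lower scale. It stood at 277 CPM in tumour CD137 minus and 31.6 CPM in spleen CD137 minus (log2 ratio 3.09), and at 324 CPM in tumour CD137 plus and 36.5 CPM in spleen CD137 plus (3.12). Of tumour CD137 minus cells 55.7% had a value, against 10.7% of spleen CD137 minus cells. Dusp10 was the member with the smallest called difference, at 77.2 CPM in tumour and 31.0 CPM in spleen for CD137 minus (log2 1.29) and at 68.1 CPM in tumour and 38.9 CPM in spleen for CD137 plus (0.79).

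Dusp4 and Dusp14 were close to absent from spleen. Dusp4 stood at 109 CPM in tumour CD137 minus, where 23.0% of cells had a value, and at 1.22 CPM in spleen CD137 minus, where 12 of 2464 cells had one. It stood at 118 CPM in tumour CD137 plus and was listed at 0 in spleen CD137 plus. Dusp14 stood at 28.5 CPM in tumour CD137 minus and 42.4 CPM in tumour CD137 plus and was listed at 0 in both spleen libraries, so no ratio is given. The table lists a gene at 0 in a library where fewer than 5 cells had a value, with few exceptions, so a listed 0 is not a measured absence. Dusp6 did not follow the others: it stood at 18.2 CPM in tumour and 11.9 CPM in spleen for CD137 minus, below the level filter on both sides, and at 22.5 CPM in tumour and 19.1 CPM in spleen for CD137 plus (log2 0.23, counting interval -0.22 to 0.72).

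For CD137 minus, 5 of the 5 measured members were called higher in tumour than in spleen, where 22.0% of the 5412 measured genes were. For CD137 plus, 4 of 5 were called higher, where 24.2% of 5710 measured genes were. The median log2 ratio of the measured members was 2.61 for CD137 minus, against 0.03 for all measured genes, and 2.38 for CD137 plus, against 0.07. These levels chose the members, so nothing is read from the counts. Since a member passes the filter through the tissue in which it is high, the counts also leave out Dusp14, and Dusp4 for CD137 plus.

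Genes that respond quickly to stimulation and to tissue dissociation moved with tissue too. The summed level of a list of 15 such genes (Fos, Jun, Ier2, Hspa1a and others) was 10597 CPM in tumour CD137 minus and 3371 CPM in spleen CD137 minus, and 9936 CPM in tumour CD137 plus and 3429 CPM in spleen CD137 plus. All 12 of the list's measured genes were called higher in tumour in both comparisons, with medians of 1.68 and 1.27 on the log2 scale. Fos, the prototype of the list, had a value in 68.4% of tumour CD137 minus cells and 51.6% of spleen CD137 minus cells. For CD137 plus its share was lower in tumour, 53.0% against 62.2% in spleen, while its level was higher, 664 against 330 CPM. The libraries differ in total per cell. With each cell thinned to the same total, the shares for CD137 minus were 58.9% in tumour and 43.0% in spleen. Those for CD137 plus were then 49.7% in tumour and 47.4% in spleen. Among cells without a Fos value, Dusp1 still had a log2 ratio of tumour over spleen of 1.81 for CD137 minus and 2.35 for CD137 plus, and Dusp2 of 1.47 and 1.96. The part of dissociation, activation or RNA from other tumour cells in the tissue difference was not tested.

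The kinase cascades that these phosphatases act on were counted by the same rule. A gene can pass it through the tissue in which it is high, so nothing is read from the counts. Of 12 genes of the ERK cascade 9 were measured, and 1 was called higher and 1 lower in tumour than in spleen for CD137 minus (Mapk3, which encodes ERK1, at log2 0.92, and the Ras activator Rasgrp1 at -0.75), with a median of -0.08. For CD137 plus 1 was called higher and 2 lower, with a median of 0.14. Of the JNK and p38 cascade 5 genes were measured for CD137 minus, 3 were called higher and the median was 0.83, led by Map2k3, a p38 activator, at 1.78, and by Mapkapk3, a kinase downstream of p38, at 1.62. For CD137 plus 5 of 8 were called higher, with a median of 0.51, Map2k3 at 2.24 and Mapkapk3 at 1.77. Of these, Map2k4, Mapk9 and Mapkapk2 reached 20 CPM in tumour only, at 23.6, 25.2 and 24.6 CPM. In spleen they stood at 16.2, 17.4 and 8.51 CPM. Mapk11 (-1.08) and Map2k6 (-0.98) went the other way and were below the level filter. Over all measured genes 22.0% were called higher in tumour for CD137 minus and 24.2% for CD137 plus. Of a list of 12 ERK-responsive genes 7 were measured, and 6 were called higher and 1 lower in each comparison, with Nr4a1 at 3.72 and 4.40 and Myc at -1.32 and -1.41. Another kind of ERK feedback, the Sprouty, Spred, Ras GTPase-activating and Dok genes, had 5 measured members, of which Rasa1 (0.74 and 0.65) was called higher and Rasa3 (-1.03 and -1.86) lower.

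The start regions of Dusp1, Dusp2 and Dusp5 are shown because these are the members, among those with a large tissue difference for both donors, in which a searched motif was found. RefSeq promoters of the build GRCm38.p6, 250 bases before to 50 bases after the start of the gene, were found for 6 of the 7 members; Dusp4 had no entry. The strings searched on both strands were the cyclic AMP response element TGACGTCA, the E-box CACGTG, the AP-1 site TGANTCA, the ETS site CCGGAAG and the CArG box that serum response factor recognises. Capitals mark the matches in the sequences of Dusp1 (chr17:26508423-26508722, minus strand), Dusp2 (chr2:127335909-127336208, plus strand) and Dusp5 (chr19:53528895-53529194, plus strand), each 5′ to 3′.
Dusp1: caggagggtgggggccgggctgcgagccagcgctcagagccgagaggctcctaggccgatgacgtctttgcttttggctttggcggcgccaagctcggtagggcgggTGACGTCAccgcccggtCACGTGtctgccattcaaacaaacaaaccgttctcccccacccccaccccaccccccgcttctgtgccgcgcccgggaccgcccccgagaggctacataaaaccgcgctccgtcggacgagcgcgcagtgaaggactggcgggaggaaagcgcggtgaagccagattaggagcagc
Dusp2: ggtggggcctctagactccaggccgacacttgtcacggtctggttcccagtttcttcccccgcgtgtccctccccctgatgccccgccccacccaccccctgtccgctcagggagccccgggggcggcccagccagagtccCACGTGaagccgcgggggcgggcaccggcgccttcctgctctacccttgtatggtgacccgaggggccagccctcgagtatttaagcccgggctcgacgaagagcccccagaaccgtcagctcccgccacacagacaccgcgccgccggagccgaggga
Dusp5: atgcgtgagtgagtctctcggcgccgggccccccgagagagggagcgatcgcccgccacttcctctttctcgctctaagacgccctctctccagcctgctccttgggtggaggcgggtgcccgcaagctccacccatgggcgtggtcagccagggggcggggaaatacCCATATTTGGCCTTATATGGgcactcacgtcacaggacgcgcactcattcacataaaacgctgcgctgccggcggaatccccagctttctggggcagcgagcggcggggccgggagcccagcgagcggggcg
Dusp1 had a cyclic AMP response element starting 143 bases before its start site and an E-box starting 126 bases before it. Dusp2 had an E-box 109 bases before its start site. Dusp5 had a pair of CArG boxes side by side, 82 and 72 bases before its start site. Of the 32851 promoters in the table, 1.79% held the cyclic AMP response element, 7.15% the E-box and 1.63% a CArG box. The AP-1 string, held by 7.81% of all promoters, and the ETS string, held by 8.86%, had no match in any of the 6, and the windows of Dusp6, Dusp10 and Dusp14 matched none of the 5 motifs. A match is a description of these letters and not a bound site. The 7 genes lie on 7 chromosomes of mm10, Dusp10 on 1, Dusp2 on 2, Dusp4 on 8, Dusp6 on 10, Dusp14 on 11, Dusp1 on 17 and Dusp5 on 19. In GENCODE, Dusp1 is overlapped on the opposite strand by Ergic1 and Dusp10 by 1700056E22Rik, which are also in the table. Whether strand was used in counting is not stated, so whether reads of these pairs were kept apart could not be checked.

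Within the tumour the phosphatases parted. Cells with a value of Pdcd1, which encodes the inhibitory receptor PD-1 and marks repeated antigen stimulation, held more Dusp4 and Dusp14 and less Dusp2 than cells without one. Dusp4 stood at 210 CPM in Pdcd1-positive and 39.8 CPM in Pdcd1-negative cells of tumour CD137 minus, a log2 ratio of 2.37, and had a value in 42.8% and 9.36% of them. In tumour CD137 plus it stood at 169 CPM in Pdcd1-positive and 53.4 CPM in Pdcd1-negative cells (1.65). Dusp14 stood at 57.0 CPM in Pdcd1-positive and 8.69 CPM in Pdcd1-negative cells of tumour CD137 minus (2.58), and at 59.8 CPM and 20.7 CPM in those of tumour CD137 plus (1.49). In tumour CD137 minus, 11.9% of Pdcd1-positive cells had a Dusp14 value, against 1.74% of Pdcd1-negative cells, at median totals per cell of 5047.5 and 4759. In tumour CD137 plus, 13.1% of Pdcd1-positive cells had one, against 4.12% of Pdcd1-negative cells, at median totals of 3825 and 3557. The share of free RNA in the values of the members was not tested. Dusp4 and Dusp14 were the members furthest above the shift of all measured genes, whose median log2 ratio was 0.44 in CD137 minus and 0.34 in CD137 plus.

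Dusp2 went the other way in both libraries. It stood at 724 CPM in Pdcd1-positive and 1002 CPM in Pdcd1-negative cells of tumour CD137 minus (log2 -0.47) and at 638 CPM in Pdcd1-positive and 1326 CPM in Pdcd1-negative cells of tumour CD137 plus (-1.05). Dusp1 had log2 ratios of -0.21 and -0.54. Relative to the median of all measured genes these were -0.91 and -1.39 for Dusp2 and -0.65 and -0.88 for Dusp1. Dusp5, the nuclear ERK phosphatase, had log2 ratios of 0.69 and 0.36, within 0.24 and 0.02 of that median. Dusp10 had log2 ratios of 0.08 and -0.30, and Dusp6, measured in CD137 plus only, 0.61.

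By the size limit 3 of 6 measured members were called higher and 0 lower in Pdcd1-positive cells of tumour CD137 minus, where 44.5% of 5631 measured genes were called higher and 4.40% lower. In tumour CD137 plus 3 of 7 were called higher and 2 lower, where 31.7% of 5653 measured genes were called higher and 4.21% lower. The median over the measured members was 0.38 in CD137 minus and 0.36 in CD137 plus. Relative to the median of all measured genes, 2 members were higher and 2 lower in CD137 minus (Dusp4 and Dusp14 against Dusp1 and Dusp2), and in CD137 plus Dusp10 joined the 2 lower ones.

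A split by Tnfrsf9 put Dusp4 and Dusp14 higher and Dusp1 and Dusp2 lower again. In tumour CD137 plus Dusp2 stood at 574 CPM in Tnfrsf9-positive and 1260 CPM in Tnfrsf9-negative cells (log2 -1.13), Dusp1 at 643 CPM and 948 CPM (-0.56), Dusp4 at 185 CPM and 60.0 CPM (1.61) and Dusp14 at 75.3 CPM and 14.1 CPM (2.33). In tumour CD137 minus, where 200 of 1262 cells had a Tnfrsf9 value, Dusp2 had a log2 ratio of -0.64, Dusp1 of -0.70, Dusp4 of 1.79 and Dusp14 of 1.35. Dusp5 was again near the median of all measured genes, at 0.44 in CD137 minus beside a median of 0.44, and at 0.17 in CD137 plus beside 0.27. Dusp6 had log2 ratios of 0.74 and 0.43 and Dusp10 of -0.08 and -0.21. In CD137 minus 3 of 7 members were called higher and 2 lower, beside 45.0% and 5.35% of 5892 measured genes. In CD137 plus 2 of 7 were called higher and 2 lower, beside 26.5% and 4.82% of 5659 measured genes.

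**Figure D2:**
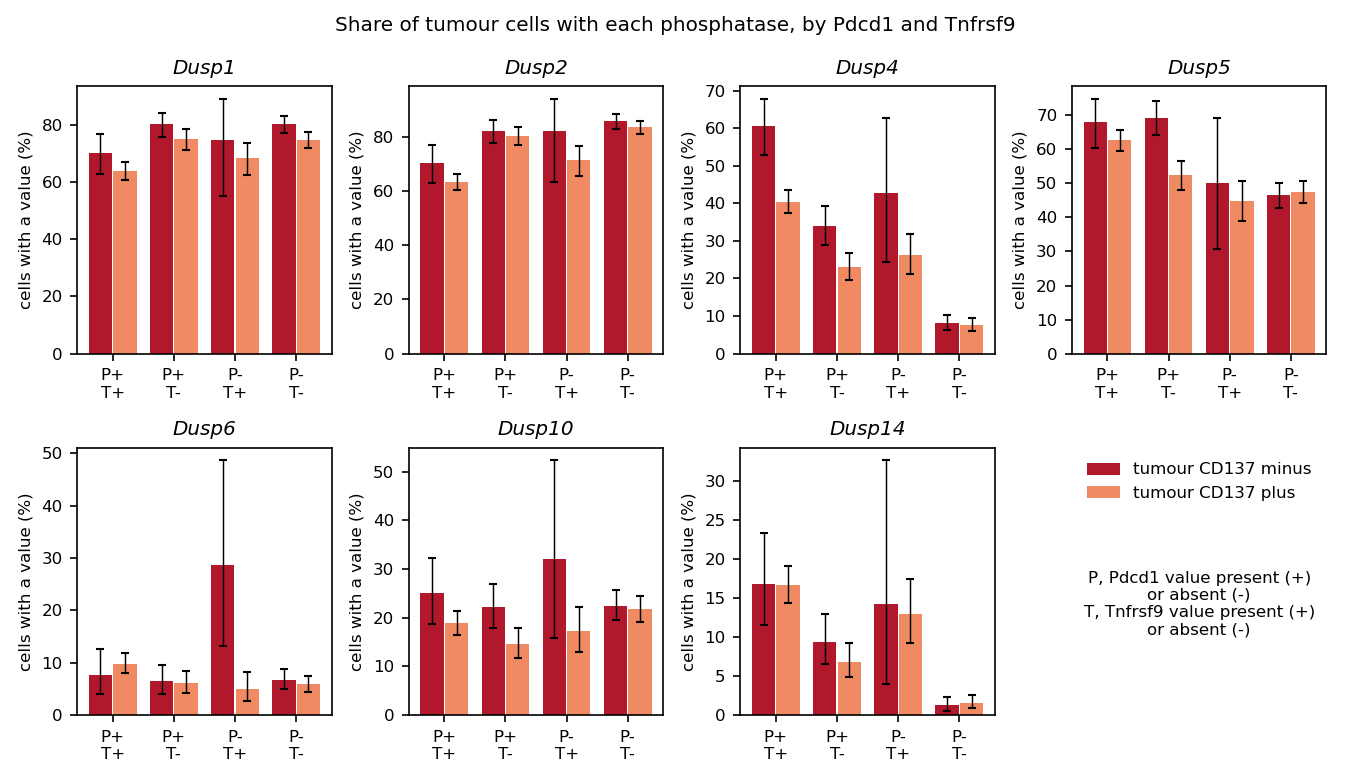
Share of tumour cells with a value of each phosphatase gene (percent, y axis from 0, own scale per gene) in cells split by Pdcd1 and Tnfrsf9, for tumour CD137 minus and tumour CD137 plus, with 95% Clopper-Pearson intervals. Dusp4 and Dusp14 have their lowest share in the cells with neither receptor, 8.06% and 1.25% in CD137 minus, whereas Dusp2 has its highest share there, 85.7%; the Pdcd1-negative Tnfrsf9-positive gate of CD137 minus holds 28 cells.

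Combining both receptors set the extremes further apart. In tumour CD137 plus Dusp2 stood at 490 CPM in the 973 cells with both receptors, at 918 CPM in the 554 cells with Pdcd1 alone, at 886 CPM in the 279 cells with Tnfrsf9 alone and at 1452 CPM in the 960 cells with neither. Dusp14 stood at 74.6, 31.8, 77.8 and 4.24 CPM in the same order, so cells with Tnfrsf9 alone were at the level of cells with both. Dusp4 stood at 198, 116, 140 and 28.6 CPM. In tumour CD137 minus Dusp14 stood at 53.9 CPM with both receptors, 58.7 CPM with Pdcd1 alone and 5.53 CPM with neither. The log2 ratio for both receptors over Pdcd1 alone was -0.12 there and 1.21 in CD137 plus. Shares of cells with Dusp14 had the same order in both libraries. They were 16.9% with both and 9.36% with Pdcd1 alone in CD137 minus, and 16.6% and 6.86% in CD137 plus. In CD137 minus the Dusp14 level with Pdcd1 alone came from 32 cells, with a mean of 2.94 corrected counts. The difference between these libraries was not tested.

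The levels also differed with the amount of Pdcd1, though not always in steps. In tumour CD137 plus Dusp2 stood at 1326 CPM in cells at 0 corrected counts of Pdcd1, 894 CPM at 1, 645 CPM at 2 to 3 and 491 CPM at 4 or more. In tumour CD137 minus the same bins had 1002, 1059, 700 and 576 CPM, so that cells at 1 were no lower than cells at 0. Dusp4 stood at 53.4, 166, 146 and 194 CPM in CD137 plus and at 39.8, 137, 234 and 232 CPM in CD137 minus, with the largest step of CD137 plus between 0 and 1. The CPM of Dusp14 showed the step from 0 to 1 and no further rise. It was 20.7, 64.1, 64.2 and 53.1 CPM in CD137 plus and 8.69, 78.5, 56.2 and 47.2 CPM in CD137 minus. The share of cells with Dusp14 kept rising in CD137 minus, at 1.74%, 8.33%, 10.1% and 14.6% in these bins. The 78.5 CPM at 1 came from 11 cells, with a mean of 4.27 corrected counts. In CD137 plus the share was 4.12% at 0 and between 12.2% and 13.7% in the other bins. Dusp1 stood at 978, 740, 667 and 635 CPM in CD137 plus. In CD137 minus it stood at 848, 871, 861 and 603 CPM, lower only at 4 or more. The bins also differed in median genes per cell, 1334.5 at 0 and 1936 at 4 or more in CD137 minus, and 1187 and 1659 in CD137 plus.

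**Figure D3:**
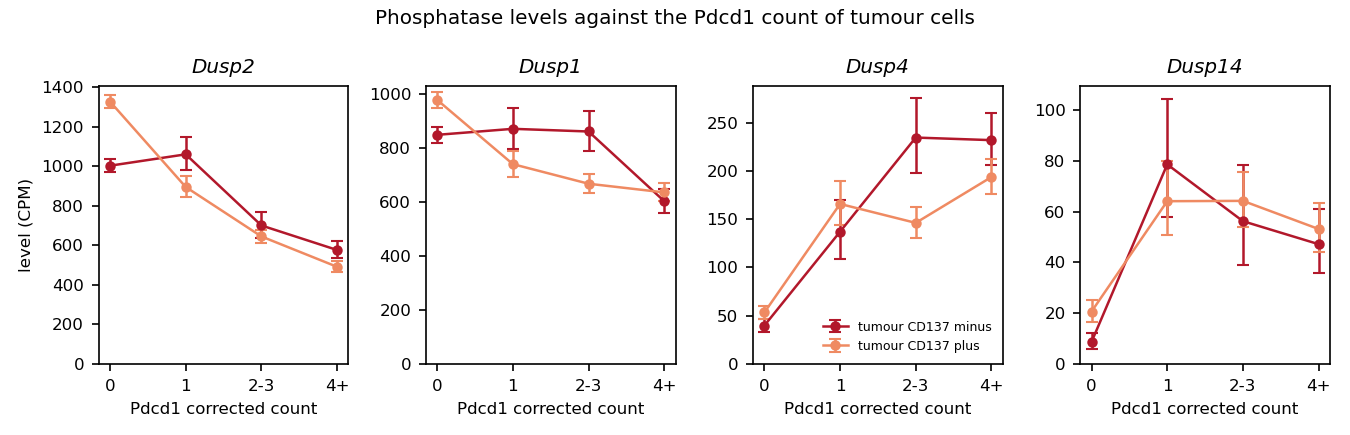
Level (CPM, y axis from 0, own scale per gene) of Dusp2, Dusp1, Dusp4 and Dusp14 in tumour cells with 0, 1, 2 to 3 and 4 or more corrected counts of Pdcd1, with 95% Poisson intervals of counting error, lines for tumour CD137 minus and tumour CD137 plus. Dusp2 stands lowest and Dusp4 high at 4 or more counts in both libraries, 491 and 194 CPM in CD137 plus.

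Among Pdcd1-positive cells, 2 phenotypes were set side by side, cells with Havcr2 (TIM-3, a receptor of terminal exhaustion) and cells with Slamf6, a receptor of the progenitor state, and no Havcr2. Dusp5 stood at 393 CPM in Havcr2-positive and 275 CPM in Slamf6-positive cells of tumour CD137 minus (log2 0.51), and at 448 CPM and 224 CPM in those of tumour CD137 plus (1.00), where the medians of all measured genes were 0.14 and 0.08. It was the 1 member called higher in both, beside 26.4% and 18.9% of measured genes called higher. Relative to the median of all measured genes it stood at 0.38 in CD137 minus, short of the limit, and at 0.92 in CD137 plus. Dusp4 did not separate the phenotypes, at 248 and 269 CPM in CD137 minus and 189 and 207 CPM in CD137 plus (-0.12 and -0.13). Dusp14 stood at 27.4 CPM in Havcr2-positive and 86.6 CPM in Slamf6-positive cells of CD137 minus (-1.63), the 1 member called lower there, beside 14.2% of measured genes. In CD137 plus it stood at 59.0 and 74.5 CPM (-0.33), and Dusp6, at 22.4 and 41.9 CPM (-0.88), was the 1 member called lower, beside 13.3%. The gates were small, 96 and 66 cells in CD137 minus and 287 and 111 in CD137 plus.

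The gates also differed in the number of genes per cell, and this touches every value between them. The median was 1729.5 genes in Pdcd1-positive and 1334.5 in Pdcd1-negative cells of tumour CD137 minus, and 1499 and 1187 in those of tumour CD137 plus. Dusp1 and Dusp2 were lowest in the cells with the most genes. In the top tertile of tumour CD137 minus cells by gene number Dusp2 stood at 563 CPM, against 1171 CPM in the bottom tertile, and in tumour CD137 plus at 459 CPM against 1238 CPM. Dusp1 stood at 534 CPM against 1020 CPM in CD137 minus, and at 574 CPM against 887 CPM in CD137 plus, where the middle tertile was highest at 995 CPM. Dusp4 stood at 168 CPM against 76.5 CPM and at 173 CPM against 83.5 CPM in these tertiles. Within the middle tertile of genes per cell, an alternative added after seeing this, Dusp2 in Pdcd1-positive over Pdcd1-negative cells had a log2 ratio of -0.76 in CD137 plus and -0.18 in CD137 minus. By Tnfrsf9 it had -0.92 in CD137 plus, but 0.27 in CD137 minus, where Dusp1 stood at 0.03. The lower CPM of Dusp1 and Dusp2 in Tnfrsf9-positive cells of tumour CD137 minus was thus not seen among cells of like gene number. Both stood below the median of all measured genes there, 0.47, though short of the limit relative to it. The tertile spans 1235 to 1664 genes, while the median Tnfrsf9-positive cell of that library had 2014.5, so it leaves out many of them. Dusp4 kept log2 ratios between 1.72 and 2.52 in all 4 of these comparisons. Dusp14 kept 1.66 and 2.86 in CD137 plus and fell below the level filter in CD137 minus.

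Dusp1 and Dusp2 also went with Fos from cell to cell. In tumour CD137 minus Dusp1 stood at 1032 CPM in cells with a Fos value and 336 CPM in cells without one (log2 1.62), and in tumour CD137 plus at 1179 CPM and 395 CPM (1.58). Dusp2 stood at 1089 CPM and 485 CPM in CD137 minus (1.17) and at 1252 CPM and 602 CPM in CD137 plus (1.06). Dusp14 and Dusp4 were lower in cells with Fos: Dusp14 stood at 18.6 CPM against 48.4 CPM in CD137 minus (-1.34) and at 33.4 CPM against 52.4 CPM in CD137 plus (-0.64), and Dusp4 had log2 ratios of -0.60 and -0.44. Dusp10 had log2 ratios of 0.62 and 0.38, and Dusp5 of -0.06 and -0.09. In spleen Dusp1 stood at 162 CPM with Fos and 94.8 CPM without it in CD137 minus (0.77), and at 162 CPM and 76.8 CPM in CD137 plus (1.06). Dusp2 in spleen had log2 ratios of 0.18 and 0.36. Pdcd1-positive cells had Fos less often, 54.5% against 77.9% of Pdcd1-negative cells in tumour CD137 minus and 43.9% against 64.2% in tumour CD137 plus. Within cells without Fos, Dusp2 in Pdcd1-positive over Pdcd1-negative cells had log2 ratios of -0.95 in CD137 minus and -1.03 in CD137 plus, and within cells with Fos of -0.02 and -0.79. Dusp1 had 0.06 and -0.28 without Fos, and 0.15 and -0.24 with it. The difference in Dusp1 by Pdcd1 was thus smaller or on the other side of 0 once Fos status was held, while Dusp2 stayed lower in CD137 plus in either case. These splits were added after the tie with Fos was seen. Tumour cells with Fos also had fewer genes, a median of 1314 against 1754 in CD137 minus and 1244 against 1427 in CD137 plus. The part of gene number in the differences by Fos was not tested.

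**Figure D4:**
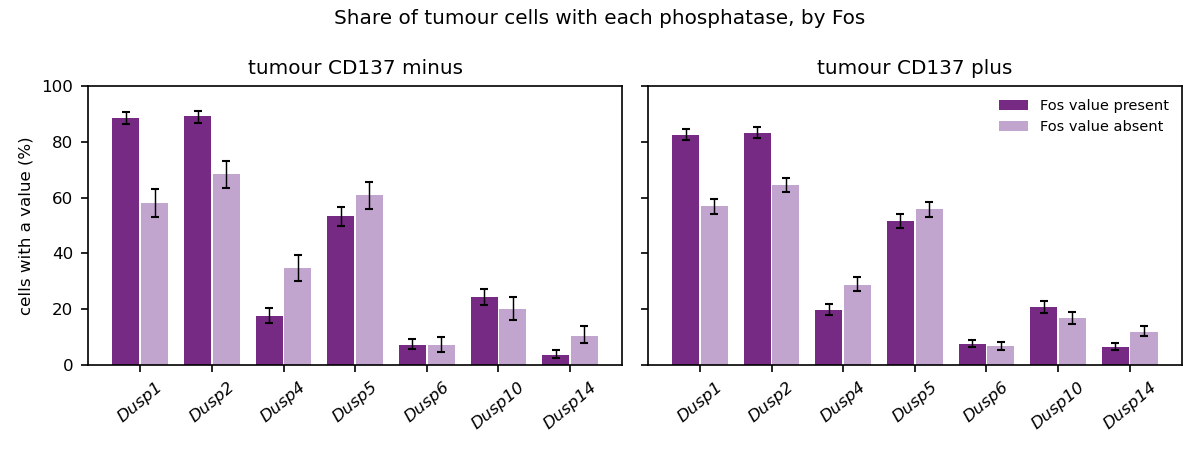
Share of tumour cells with a value of each phosphatase gene (percent, y axis 0 to 100) among cells with and without a Fos value, with 95% Clopper-Pearson intervals, in tumour CD137 minus (left) and tumour CD137 plus (right). Dusp1 has a value in 88.5% of Fos-positive and 58.1% of Fos-negative cells of CD137 minus, and in 82.5% and 56.8% of those of CD137 plus.

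Tumour cells often had a value of more than 1 member. The median tumour cell of either library had a value of 3 of the 7 genes, and the median spleen cell of 1. No member had a value in 1.98% of tumour CD137 minus cells and 2.96% of tumour CD137 plus cells, against 29.3% of spleen CD137 minus and 27.1% of spleen CD137 plus cells. What the shares of the single genes alone would give was not worked out, so no tie between members is read from these counts. Dusp14 went with Dusp4: it stood at 71.0 CPM in cells with a Dusp4 value and 15.4 CPM in cells without one in tumour CD137 minus (log2 2.13), and at 91.5 CPM and 26.1 CPM in tumour CD137 plus (1.77). Dusp2 was lower in cells with Dusp4, at 665 against 957 CPM in CD137 minus (-0.52) and 602 against 1056 CPM in CD137 plus (-0.81). Cells with Dusp4 also had more genes, a median of 1811 against 1358.5 in CD137 minus and 1663.5 against 1227.5 in CD137 plus. The part of gene number in these differences was not tested. Over the 7 groups of at least 50 tumour cells given by Pdcd1 and Tnfrsf9, the Pearson correlation of log2 CPM was 0.95 between Dusp4 and Dusp14, 0.90 between Dusp1 and Dusp2, and -0.83 between Dusp2 and Dusp4; these groups share 2 libraries and the correlations are a description.

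The genes of most like pattern over 9 such groups, spleen included, were searched among 5382 genes. Dusp1 was nearest to Klf6, Hsp90aa1 and Nfkbia (r between 0.994 and 0.996), Dusp2 to Ier2, Prdx6 and Atf4 (0.981 to 0.990) and Dusp5 to Rgs1, Nr4a3 and Nfil3 (0.994 to 0.996). Dusp4 was nearest to Sult2b1, Litaf and Phactr2 (0.993 to 0.997) and Dusp14 to Tgfb1, Cstb and Ppp1r2 (0.988 to 0.992). Dusp6 had weaker likenesses, to Mbnl2, Ndufaf2 and Arl8b (0.889 to 0.943), and Dusp10 was nearest to Wdr45b, Ube2s and Klf4 (0.966 to 0.968). All 9 groups come from 4 libraries, so these values order genes and do not test them. They also carry the difference between tumour and spleen that chose the members. Over the 9 groups Dusp4 correlated at 0.81 with Dusp1 and 0.69 with Dusp2, against -0.73 and -0.83 over the 7 tumour groups. Dusp4 with Dusp14 (0.97) and Dusp1 with Dusp2 (0.97) kept their sign.

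Between the donors the tumour levels of most members were close to each other. Dusp1 had a log2 ratio of CD137 minus over plus of -0.01 (counting interval -0.06 to 0.04), Dusp2 of -0.09, Dusp4 of -0.11, Dusp5 of -0.23, Dusp6 of -0.29 and Dusp10 of 0.18. Dusp14 was the 1 member called, lower in CD137 minus at -0.56 (-0.84 to -0.32), with a value in 5.86% of CD137 minus cells and 9.07% of CD137 plus cells. That is 1 of 7 measured members called lower, where 5.44% of 5353 measured genes were called lower and 7.14% in either direction. The median was -0.11 over the members and -0.13 over all measured genes. Relative to the median of all measured genes Dusp14 stood at -0.43, short of the limit. Shares of cells gave another picture for the abundant members, 78.9% against 70.4% of cells for Dusp1 and 82.6% against 74.5% for Dusp2, but the libraries differ in total per cell. Thinned to 2900 corrected counts per cell, the shares were 68.5% and 65.3% for Dusp1 and 73.3% and 70.1% for Dusp2.

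The make-up of the tumour libraries moved with CD137 as well. Pdcd1 had a value in 40.7% of CD137 minus and 55.2% of CD137 plus cells. The summed level of 9 terminally exhausted-like genes was 2095 CPM in CD137 minus and 3125 CPM in CD137 plus. Among Pdcd1-positive cells alone Dusp14 stood at 57.0 CPM in CD137 minus and 59.8 CPM in CD137 plus (log2 -0.07, counting interval -0.36 to 0.22). In the same cells Dusp4 stood at 0.31, Dusp10 at 0.36, Dusp2 at 0.18, Dusp1 at 0.13 and Dusp5 at -0.01. Dusp6 stood at -0.56 there, at 17.8 CPM in CD137 minus and 26.7 CPM in CD137 plus, the 1 member of 7 called, beside 2.99% of measured genes called lower.

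Dusp4 leaned to CD137 minus in each Pdcd1-positive gate that was looked at. Its log2 ratio of CD137 minus over plus was 0.43 in cells with both Pdcd1 and Tnfrsf9, 0.39 in cells with Pdcd1 and Havcr2, 0.38 in cells with Pdcd1 and Slamf6 without Havcr2, and 0.61 in cells with Pdcd1 and no Tnfrsf9. In the last gate, of 342 CD137 minus and 554 CD137 plus cells, it stood at 178 CPM in CD137 minus and 116 CPM in CD137 plus. There Dusp14 was also called higher, at 58.7 CPM in CD137 minus and 31.8 CPM in CD137 plus (0.87), so 2 of 7 members were called higher, beside 7.90% of measured genes. Its shares of cells were closer, 9.36% in CD137 minus and 6.86% in CD137 plus, and 7.31% and 6.50% after thinning. The Dusp14 levels came from 32 and 38 cells, with means of 2.94 and 1.66 corrected counts. In Pdcd1-positive Havcr2-positive cells Dusp14 stood on the other side, at 27.4 CPM in CD137 minus and 59.0 CPM in CD137 plus (-1.08, counting interval -2.09 to -0.24). With Dusp6 (-0.78, a counting interval that includes 0) it made 2 of 7 members called lower, beside 11.7% of measured genes. These gates overlap in their cells. A Tnfrsf9 value is also rarer where the gene is deleted, so gates defined by it do not hold like cells in the 2 libraries.

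**Figure D5:**
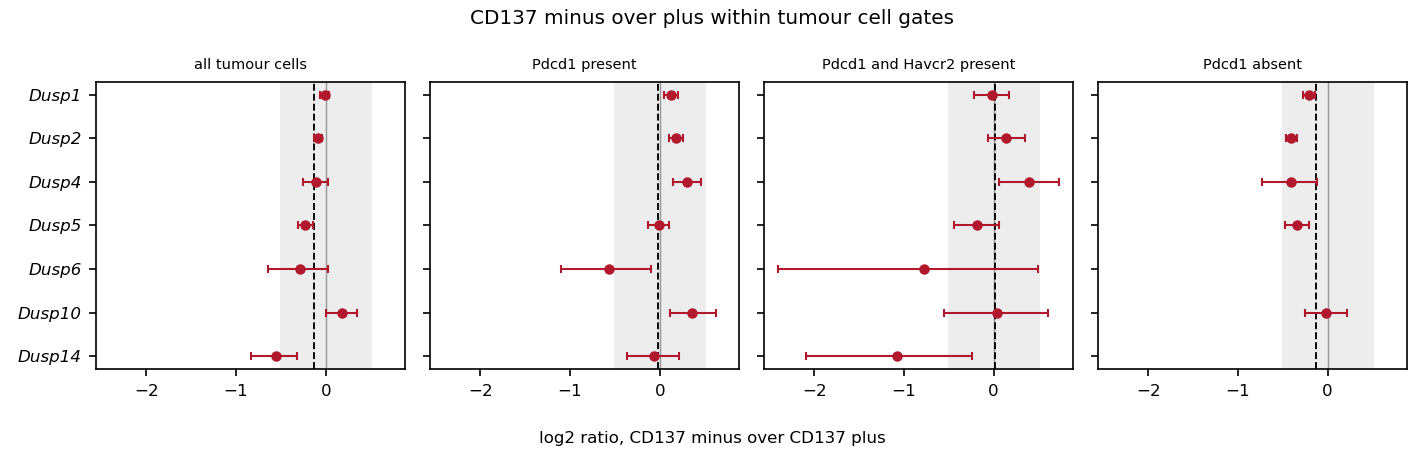
Log2 ratio of CPM, CD137 minus over CD137 plus (x axis), of each measured phosphatase gene (rows) in all tumour cells and within 3 gates, with 95% counting intervals; the grey band is the range below the size limit of 0.5 and the dashed line the median of all measured genes. Dusp4 stands at 0.31 in Pdcd1-positive cells and -0.41 in Pdcd1-negative cells, and Dusp2 at 0.18 and -0.40.

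In Pdcd1-negative cells the CPM of most measured members leaned to CD137 plus. Dusp2 stood at 1002 CPM in CD137 minus and 1326 CPM in CD137 plus (log2 -0.40). Dusp1 stood at -0.20, Dusp5 at -0.34 and Dusp4 at -0.41, beside a median of -0.13 for all measured genes. Dusp4 was low there, at 39.8 and 53.4 CPM, and Dusp10 stood at 75.4 and 76.3 CPM. Shares of cells did not lean to CD137 plus for Dusp1 and Dusp2. Dusp2 had a value in 85.6% of CD137 minus and 80.6% of CD137 plus cells, and in 77.5% and 76.8% after thinning. Dusp1 had one in 80.2% and 73.4%, and in 70.7% and 69.2% after thinning. None of the 5 measured members was called there, while 10.7% of measured genes were called in either direction. In cells with neither Pdcd1 nor Tnfrsf9, Dusp2 stood at 1003 CPM in CD137 minus and 1452 CPM in CD137 plus (-0.53), the 1 of 5 measured members called, beside 7.37% called lower. Relative to the median of all measured genes it stood at -0.42, short of the limit. The 8 measured terminally exhausted-like genes were all called lower in Pdcd1-negative CD137 minus cells (median -0.89), so the Pdcd1-negative gate did not hold like cells in the 2 libraries, and the part of this in the phosphatase values was not tested.

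In spleen 4 members were measured between CD137 minus and plus and 0 were called, while 11.7% of 5183 measured genes were called in either direction. Dusp1 stood at 130 CPM in CD137 minus and 129 CPM in CD137 plus (log2 0.01, counting interval -0.17 to 0.19) and Dusp2 at 187 and 180 CPM (0.05). Dusp5 had a log2 ratio of -0.20 and Dusp10 of -0.32, with counting intervals that include 0. The median was -0.09 over the 4 members and -0.08 over all measured genes. Dusp6, below the level filter, stood at 11.9 CPM in CD137 minus and 19.1 CPM in CD137 plus.

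Of the 12 other genes with a Dusp symbol in the table, 3 passed the level filter in a library. Dusp11, whose product acts on RNA, was the most abundant and stood at 158 CPM in tumour CD137 minus, 162 CPM in tumour CD137 plus, 155 CPM in spleen CD137 minus and 151 CPM in spleen CD137 plus, so it showed none of the tissue difference of Dusp1, Dusp2, Dusp4 and Dusp5. Dusp12 stood between 15.1 and 28.0 CPM and Dusp19 between 15.4 and 25.0 CPM over the 4 libraries. The others were below the filter. Dusp7, a cytoplasmic ERK phosphatase like Dusp6, was on the opposite side, at 4.31 CPM in tumour and 11.5 CPM in spleen for CD137 minus. For CD137 plus it stood at 4.09 CPM in tumour and 10.9 CPM in spleen. Dusp23 and Dusp28 were on that side too, Dusp28 at 8.12 and 8.95 CPM in tumour and 11.2 and 10.9 CPM in spleen. Dusp16 was on the side of the members, at 7.95 CPM in tumour and 1.22 CPM in spleen for CD137 minus. For CD137 plus it stood at 6.42 CPM in tumour and was listed at 0 in spleen. Dusp3, Dusp8 and Dusp18, at most 1.75 CPM in tumour, were listed at 0 in both spleen libraries.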

How the data were processed

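Cells of 7 chimeric mice were pooled into 4 single-cell 5' libraries, per the labels' protocols, and Cell Ranger 3.0.2, Seurat 3.0 and mm10 were used, per the submitters' processing notes, with no cell filter, normalization or strand setting named there. The labels disagree on which fraction was tomato positive, so groups follow the stated CD137 status. Values in the deposited table are natural logs of a whole number raised by 1, for every entry of 6965 cells at a relative tolerance of 1e-09. The narrow totals per cell read as counts that the authors corrected to 1 depth per library, so no count model was used to test a difference. The intervals of levels and ratios still treat them as sampled counts. The whole numbers were recovered, summed over the cells of a library or gate, and scaled to 1e+06 (CPM).

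A cell was positive for a gene at any value above 0. Log2 ratios used a pseudocount of 1 CPM; the filter, the size limit and the intervals are defined in the text, and the ratio rule was tested on simulated data. Shares were also taken after thinning each cell to 2900, which left out 0 cells. No doublet caller was run. A marker gene, and the gate, list and alternative that use it, are not reported here. The members, gates, lists and motifs were chosen with earlier results of these data known. All members were named; like-pattern genes were the 3 highest Pearson correlations of log2(CPM + 1) over groups of at least 50 cells. Positions come from GENCODE and promoters from RefSeq. Alternatives were other pseudocounts, filters, size limits, cell subsets and scalings. Computation ran in Python 3.11.15 with pandas 2.3.3, numpy 2.4.6 and scipy 1.17.1, and plots were drawn with matplotlib 3.10.9.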

Additional observations from a re-analysis of the deposited data

Results flagged for a closer look

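Each member below had opposite signs of the log2 ratio of CD137 minus over plus in a pair of groups, each at least 0.1 in size. None of these differences between groups was tested, since each side is 1 library. Dusp10 stood at 0.18 in tumour and -0.32 in spleen. Within the tumour, Dusp1 stood at 0.13 in Pdcd1-positive and -0.20 in Pdcd1-negative cells, Dusp2 at 0.18 and -0.40, and Dusp4 at 0.31 and -0.41. In the Pdcd1-negative gate all measured genes had a median of -0.13, and in the Pdcd1-positive gate -0.02.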

How the results depend on the processing

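No paired analysis was possible because each group is 1 library, and for the same reason no library could be left out. Between CD137 minus and plus in tumour, the 1 member called became 0 with a pseudocount of 10 CPM, with ratios relative to the median of all measured genes, and with a size limit of 1. With the mean of per-cell log2 values, 2 members passed a limit of 0.1, Dusp1 (0.29) and Dusp2 (0.30), both higher in CD137 minus; this measure is not scaled to the cell total, which differs between the libraries. In spleen the 0 called became 1 with a level filter of 5 CPM and 1% of cells (Dusp6, lower) and 1 with the mean of per-cell log2 values (Dusp2, -0.10). By Pdcd1 in tumour CD137 minus, 3 called became 5 with the mean of per-cell log2 values, and in CD137 plus 5 became 3 at a size limit of 1. By Tnfrsf9 in tumour CD137 minus, 5 became 2 at a size limit of 1 and 3 in the middle tertile of genes per cell, where Dusp1 (0.032) and Dusp2 (0.27) changed sign; the cause was not tested. The other alternatives, pseudocount 0.1 CPM, cells selected as CD8 without other markers, thinning, shared barcodes left out and a gate of 2 or more counts, moved none of the 8 counts by over 1.5 times. Fos splits and the middle tertile were added after seeing the data. Dusp6 and Dusp14 rest on 110 and 172 corrected counts in tumour CD137 minus, which limits their precision, and corrected counts hide the sequenced depth.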
